A study of Homo sapiens with 20 samples.

Results

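The enzymes that make serine from a glycolytic intermediate and those that pass its carbon to folate were followed in T-cell acute lymphoblastic leukemia (T-ALL) lines given a gamma-secretase inhibitor. The set named 9 genes: PHGDH, PSAT1 and PSPH of serine synthesis, SHMT1 and SHMT2, and MTHFD1, MTHFD2, MTHFD1L and ALDH1L2 of the folate pathway. Probe sets were taken where the array annotation named only 1 of these genes. This gave 10 probe sets for 7 of the 9 genes, out of 11963 genes with such a probe set. MTHFD1L and ALDH1L2 were not analysed here. SHMT1 lay under the filter on low signal, so 6 of the 7695 tested genes were members.

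Each of 10 human T-ALL lines gave 1 array after 100 nM CompE and 1 array after vehicle (DMSO), both at 72 h. These were RPMI8402, PF382, MOLT3, P12-ICHIKAWA, KOPTK1, HPB-ALL, CUTLL1, DND41, ALL-SIL and CCRF-CEM, and the series' description gives activating NOTCH1 mutations for all of them. Each is an established line, so it stands for 1 leukemia or lymphoma. CompE blocks gamma-secretase, the protease that releases the active part of NOTCH receptors, and the study set out to find the expression response to blocking NOTCH1. Nothing in the labels tells whether cultures were separate, so p-values measure the spread between lines, and the number of arrays limits the precision.

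In this pathway PHGDH, PSAT1 and PSPH act in turn to make serine. Serine hydroxymethyltransferases, SHMT2 in mitochondria and SHMT1 in the cytosol, then split serine into glycine and a carbon unit carried by folate. MTHFD2 and MTHFD1L carry that unit on to formate in mitochondria, MTHFD1 does the same steps in the cytosol in either direction, and ALDH1L2 oxidises it in mitochondria. Proliferating leukemia cells use these units to build purines and thymidylate, and the pathway is known as the target of antifolate drugs.

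Signals were MAS5 intensities, and changes were taken as CompE minus DMSO within a line on the log2(signal + 16) scale. NOTCH inhibition was visible in HES1, a direct NOTCH target, which had a mean signal of 324 ± 330 with CompE and 812 ± 542 with DMSO (SD, n = 10) and was lower in all 10 lines. MYC, a transcription factor that NOTCH1 drives in T-ALL, fell by 1.50 ± 0.282 (SE, limma adjusted p = 0.0107). The T-cell markers were above the filter for 8 of 8 genes, with summed signals of 12870 to 28290 with CompE and 12950 to 25460 with DMSO. Of the markers of other cells, 0 of 4 myeloid, 0 of 1 erythroid, 2 of 3 B-cell, 1 of 3 epithelial and 2 of 3 fibroblast genes measured were above it. The 3′ to 5′ signal ratio of ACTB, a measure of RNA quality, ran from 1.22 to 9.76 with CompE and from 1.02 to 3.32 with DMSO. It was higher with CompE in 9 of 10 lines and highest in KOPTK1 in both groups.

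All 6 tested members had a negative mean change, and 2 of them, MTHFD1 and MTHFD2, fell at an adjusted p under 0.05 in limma. Of all tested genes, 7.17% changed at that threshold, 3.24% lower and 3.94% higher. The median change of the members was -0.48, beside 0.044 over all tested genes, of which 41.05% had a negative change. At an unadjusted p under 0.05, 5 of the 6 members were lower, beside 1934 of all 7695 tested genes that passed it in either direction. A mean change at or under -0.5 was found for 3 of the 6 (PHGDH, MTHFD1 and MTHFD2), beside 1.59% of all tested genes. The members were chosen with earlier results of these data known, so such counts describe the set and do not test it. Among the 10 probe sets, of which SHMT2 and PSPH have more than 1 each, 9 had a lower mean with CompE. Of all probe sets at or above the filter 55.04% were higher with CompE, and of those under it 75.5%. Of the member probe sets 1, that of MTHFD1, passed in the fit over all 19064 probe sets, of which 2.04% passed, 1.05% lower and 0.991% higher. Of the 7 genes with a probe set, the filter on low signal removed SHMT1 alone. In RNA from a whole culture, fewer cells with a transcript and less of it per cell cannot be told apart.

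**Figure D1:**
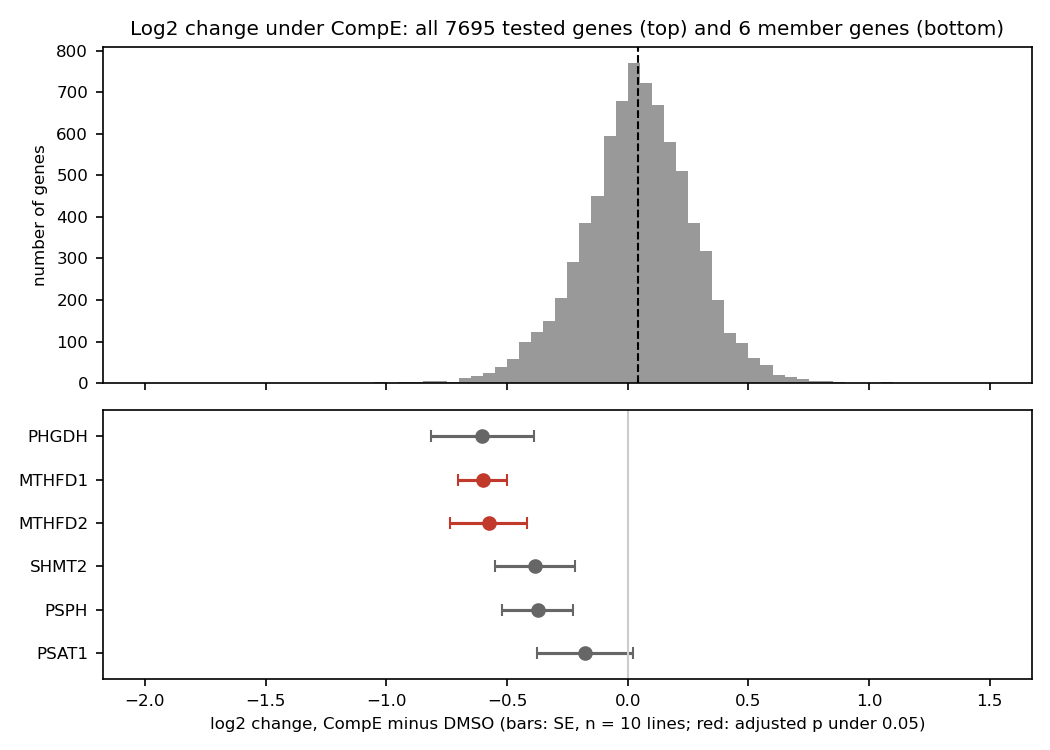
Log2 change under CompE (CompE minus DMSO, horizontal axis) as the number of genes per bin for all 7695 tested genes (top, dashed line at their median of 0.044) and as the mean with its SE over 10 lines for each of 6 member genes (bottom). All 6 members lie left of 0, and MTHFD1 and MTHFD2, in red, have an adjusted p under 0.05.

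PHGDH catalyses the committed first step of serine synthesis. Its signal (probe set 201397_at) was lowest at 184 in HPB-ALL, had a median of 711 and reached 1201 in CCRF-CEM with CompE, against a lowest of 265 in KOPTK1, a median of 1017 and a highest of 1850 in DND41 with DMSO. The groups overlapped across lines, and within lines CompE was lower in 8 of 10. The mean change was -0.60 ± 0.213 (SE, n = 10; 95% interval -1.05 to -0.15), and it did not pass the threshold (limma adjusted p = 0.0926).

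That mean joined very unequal lines. In HPB-ALL the PHGDH signal was 184 with CompE and 914 with DMSO, a log2 change of -2.22. In CUTLL1 it was 326 with CompE and 1063 with DMSO, and in DND41 698 with CompE and 1850 with DMSO. The median change over lines was only -0.26, since 5 lines (CCRF-CEM, MOLT3, P12-ICHIKAWA, PF382 and RPMI8402) lay between -0.26 and 0.11. KOPTK1 went the other way, with 407 with CompE and 265 with DMSO. Without KOPTK1, the line with the highest ACTB ratios, the change was -0.74 with an adjusted p of 0.0249 in limma. That fit called 1031 of all 7695 tested genes, where the fit of all lines called 552. Of the 10 fits that each left out 1 line, this was the only 1 that called PHGDH. Without HPB-ALL the change was -0.42 (limma adjusted p = 0.208). With the ACTB ratio as a covariate in all lines the PHGDH change was -0.79 (adjusted p = 0.0854).

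PSAT1, the aminotransferase of the second step, differed between lines far more than with treatment. Its signal (220892_s_at) ran from 25.0 in DND41 through a median of 214 to 1202 in CCRF-CEM with CompE, and from 8.56 in DND41 through a median of 389 to 1416 in CCRF-CEM with DMSO. The groups overlapped almost fully, and 5 lines were lower and 5 higher with CompE. The mean change was -0.18 ± 0.199 (SE; 95% interval -0.60 to 0.24; limma adjusted p = 0.623). CUTLL1 had 117 with CompE and 478 with DMSO, a change of -1.89, and without this line the mean change was 0.014. KOPTK1 followed at -1.06, with 93.9 with CompE and 214 with DMSO. The positive changes of DND41 (0.74) and HPB-ALL (0.48) stood on signals of 25.0 and 45.0 with CompE and 8.56 and 27.8 with DMSO, near the filter of 32.5.

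PSPH, the phosphatase that completes serine synthesis, was read by 2 probe sets that did not rank the lines alike. With 205048_s_at the signal was 45.4 at the lowest (MOLT3), 313 at the median and 987 at the highest (ALL-SIL) with CompE, against 49.1 (MOLT3), 429 and 1102 (HPB-ALL) with DMSO. Its mean change was -0.37 ± 0.147 (SE; limma adjusted p = 0.126), lower in 8 of 10 lines. DND41 had 82.5 with CompE and 313 with DMSO, a change of -1.74, and the mean without it was -0.22. With 205194_at signals lay between 76.3 and 154 with CompE and between 89.0 and 242 with DMSO, and the change was -0.27 ± 0.135 in the fit over probe sets (adjusted p = 0.298). The line means of the 2 probe sets correlated at r = 0.564 and their changes at r = 0.234 over 10 lines, which share the same arrays. RefSeq lists a pseudogene of PSPH, PSPHP1, and also pseudogenes of PSAT1, SHMT1, MTHFD1 and MTHFD2. Whether a probe set also reads such copies was not tested, so levels per line are uncertain to that extent.

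**Figure D2:**
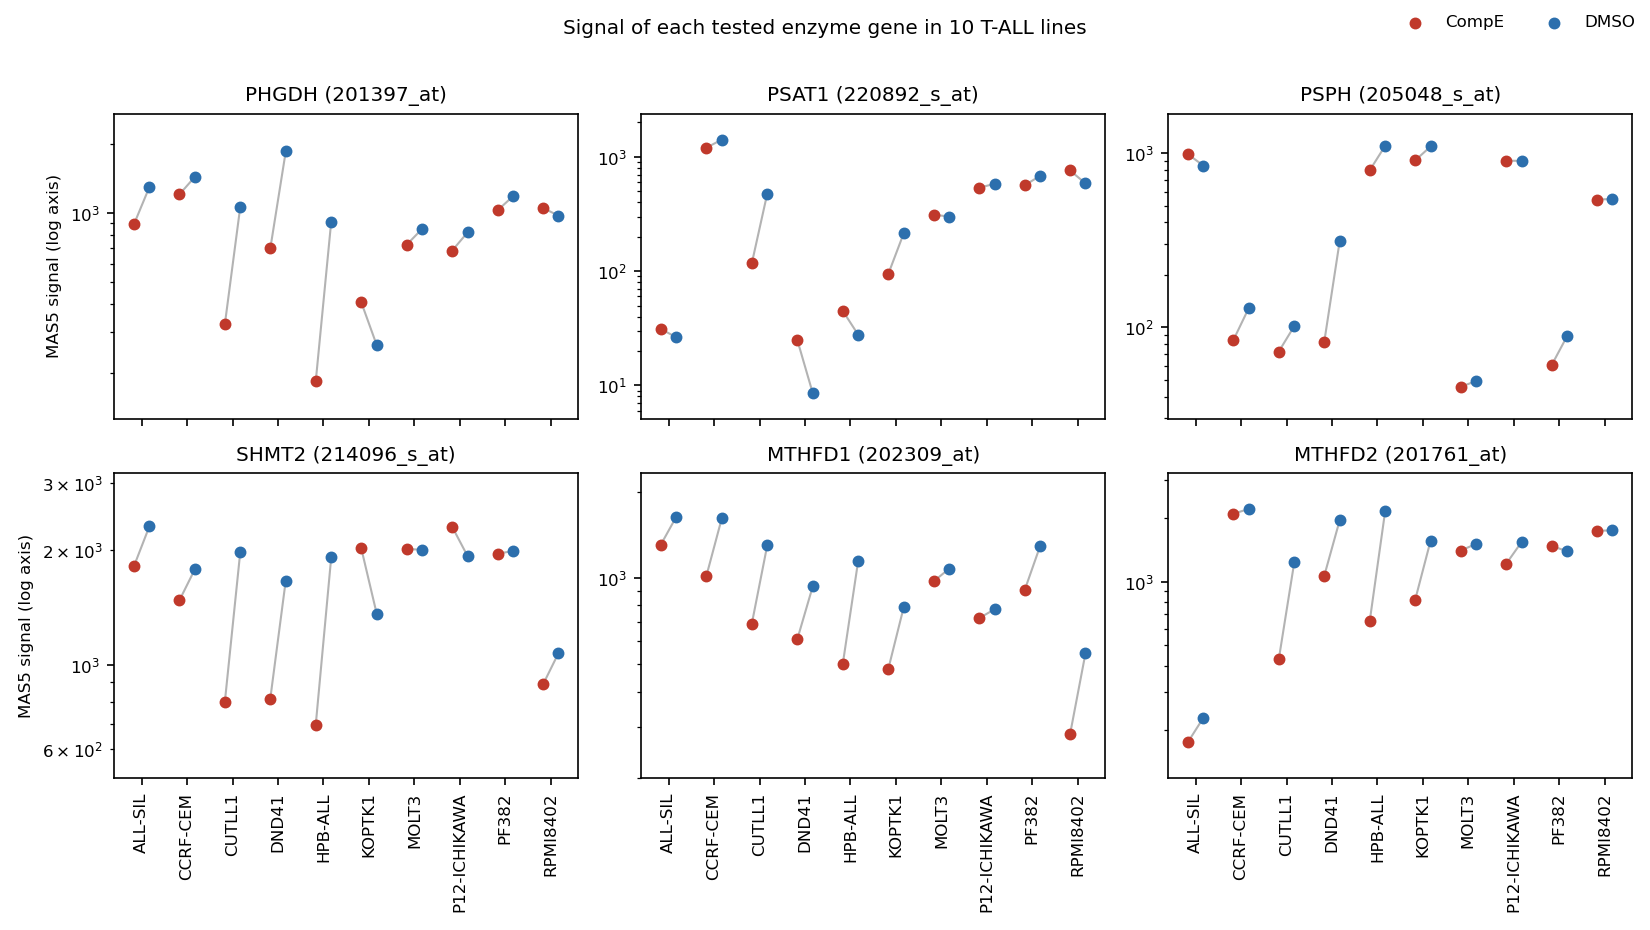
MAS5 signal (vertical log axis) of the 6 tested enzyme genes in each of 10 lines (horizontal axis), with CompE in red left of DMSO in blue and a line joining each pair. MTHFD1 is lower with CompE in every line, while the PSAT1 and PSPH lines keep their wide differences in level under both treatments.

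SHMT2, the mitochondrial enzyme that splits serine, was read by 3 probe sets, all with a lower mean with CompE. The brightest, 214096_s_at, had 696 (HPB-ALL), 1645 and 2306 (P12-ICHIKAWA) as lowest, median and highest signal with CompE, against 1073 (RPMI8402), 1923 and 2311 (ALL-SIL) with DMSO. Its change was -0.38 ± 0.166 (SE; limma adjusted p = 0.159), lower in 7 of 10 lines and overlapping between groups. Probe set 214437_s_at was lower in all 10 lines, with 215 to 539 with CompE and 216 to 1031 with DMSO. Its change of -0.73 ± 0.186 came closest to the threshold in the fit over all probe sets (adjusted p = 0.0533). Probe set 214095_at was lower in 9 lines, at -0.58 ± 0.174 (adjusted p = 0.0907).

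The 3 SHMT2 probe sets gave similar changes by line, with r between 0.831 and 0.869 over 10 lines on shared arrays. All 3 had their lowest changes in CUTLL1, DND41 and HPB-ALL, except that MOLT3 lay below DND41 with 214095_at. In HPB-ALL, 214096_s_at had 696 with CompE and 1916 with DMSO. KOPTK1 again stood on the other side, at 0.57 with 214096_s_at and 0.31 with 214095_at, while 214437_s_at gave a change of -0.004 there. Without KOPTK1 the change of SHMT2 with 214096_s_at was -0.49 with an adjusted p of 0.0447 in limma, in the fit that called 1031 genes. Of the 10 fits that each left out 1 line, only that 1 called SHMT2. Without HPB-ALL the change was -0.27 (limma adjusted p = 0.353).

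SHMT1, the cytosolic counterpart, had only dim signals. They lay between 17.3 and 44.6 with CompE and between 2.10 and 25.6 with DMSO, and the mean of 217304_at was under the filter. The change was 0.55 ± 0.173 (SE, adjusted p = 0.107 over all probe sets), higher with CompE in 9 of 10 lines. Dim probe sets as a whole were also higher with CompE, at a median of 0.117 with 75.5% above 0 among the 7379 under the filter, beside 0.026 and 55.04% among the 11685 at or above it. Of the dim ones, 1.545% had a change at least as high as that of SHMT1. The planned difference of the SHMT2 change minus the SHMT1 change was computed and was -0.93 over 10 lines. Since SHMT1 was under the filter, that difference is not read as a result. No call was made for SHMT1 in either direction.

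MTHFD1, the cytosolic enzyme that joins formate to folate and interconverts the bound carbon unit, was lower in all 10 lines, as were 1.51% of all tested genes. By the brightest probe set of each gene it was the only such member, while SHMT2 with 214437_s_at was also lower in all 10. The MTHFD1 signal (202309_at) was 284 (RPMI8402), 707 and 1306 (ALL-SIL) as lowest, median and highest with CompE. With DMSO it was 545 (RPMI8402), 1111 and 1635 (ALL-SIL). The groups overlapped across lines but each line's CompE signal was below its own DMSO signal. The change was -0.60 ± 0.102 (SE, n = 10; 95% interval -0.82 to -0.39), a CompE level 0.659 times that with DMSO, with a limma adjusted p of 0.00692. By p-value it was number 19 of 7695 tested genes.

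The size of the MTHFD1 change ran from -0.10 in P12-ICHIKAWA and -0.15 in MOLT3 to -1.17 in HPB-ALL. RPMI8402 had 284 with CompE and 545 with DMSO, a change of -0.90, although the PHGDH and MTHFD2 signals of that line were nearly the same under both treatments. KOPTK1 had 479 with CompE and 787 with DMSO, so its MTHFD1 signal was lower while those of PHGDH and SHMT2 (214096_s_at) were higher. MTHFD1 kept its call without any single line and with a covariate for the ACTB ratio (-0.59, adjusted p = 0.0239). It lost the call when the lines were not used as blocks (adjusted p = 0.977, the highest over all settings run, of which the lowest was 0.00416).

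MTHFD2, the mitochondrial dehydrogenase and cyclohydrolase, was lower in 9 of 10 lines. Its signal (201761_at) was 175 (ALL-SIL), 1137 and 2086 (CCRF-CEM) as lowest, median and highest with CompE, against 228 (ALL-SIL), 1547 and 2201 (CCRF-CEM) with DMSO. The groups overlapped, and the change was -0.58 ± 0.160 (SE, n = 10; 95% interval -0.92 to -0.24; limma adjusted p = 0.0413).

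The MTHFD2 change rested on fewer lines than that of MTHFD1. HPB-ALL had 650 with CompE and 2149 with DMSO, and CUTLL1 had 431 with CompE and 1231 with DMSO. KOPTK1, at 820 with CompE and 1560 with DMSO, and DND41, at 1064 with CompE and 1947 with DMSO, were next, and the other 6 lines lay between -0.35 and 0.079. Without 1 line the adjusted p was 0.0575 (ALL-SIL), 0.0874 (CUTLL1), 0.0937 (DND41), 0.0967 (HPB-ALL) or 0.0561 (RPMI8402). With the ACTB ratio as a covariate the change was -0.44 and the adjusted p 0.184.

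The means of MTHFD2 and MTHFD1 were close. The MTHFD2 change minus the MTHFD1 change was 0.025 (SD 0.504, n = 10; 95% interval -0.34 to 0.39), with an exact sign-flip permutation p of 0.871. The interval leaves room for a difference in either direction, and the difference turned negative without CCRF-CEM (-0.037), PF382 (-0.037) or RPMI8402 (-0.072).

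The bases just upstream of MTHFD1 and MTHFD2, the members that fell, are shown with the letters found in them. CACGTG is the E-box, which MYC is known to bind. Of the 9 members, 6 had an entry among the RefSeq promoters (GRCh38.p14), and 250 bases before each start site were searched on both strands for CACGTG, for CACGCG, a known variant of it, and for TGATGNAA, letters of ATF4 sites. These lie in 6.34%, 9.72% and 3.14% of 35116 such windows, and no match overlapped one of another motif. The MTHFD1 window, at chr14:64388103-64388352 on the plus strand, held 1 CACGTG whose first letter is 15 bases before the start site. The MTHFD2 window, at chr2:74198365-74198614 on the plus strand, held 1 CACGCG, read on the opposite strand, 24 bases before it. Capitals mark the match.
MTHFD1: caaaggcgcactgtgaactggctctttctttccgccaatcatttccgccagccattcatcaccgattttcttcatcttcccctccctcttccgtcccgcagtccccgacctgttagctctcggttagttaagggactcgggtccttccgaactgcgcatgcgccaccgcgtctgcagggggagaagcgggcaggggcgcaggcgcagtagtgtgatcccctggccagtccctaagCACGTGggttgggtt
MTHFD2: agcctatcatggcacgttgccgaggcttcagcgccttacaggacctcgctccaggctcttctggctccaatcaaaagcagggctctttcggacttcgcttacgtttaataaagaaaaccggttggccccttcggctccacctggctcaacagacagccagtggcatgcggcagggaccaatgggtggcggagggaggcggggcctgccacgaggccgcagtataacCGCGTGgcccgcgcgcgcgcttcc
None of the 3 was found in the windows of PHGDH, PSAT1 and SHMT1, which says only that these letters are not there. MTHFD1L had 1 CACGTG and 1 TGATGCAA, each counted in 2 of its 4 windows because those windows overlap and hold the same bases.

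The level of 5 of the 6 tested members differed between lines (limma moderated F test, adjusted p under 0.05), beside 76.3% of all tested genes. Cell line took up 96.1% of the variance of PSPH (205048_s_at) and 95.64% of that of PSAT1, against a median of 80.16% over all genes. With the other PSPH probe set, 205194_at, it took up only 54.77%. For SHMT2 it took up 52.19% (214096_s_at), 39.22% (214095_at) and 41.17% (214437_s_at). With 214096_s_at the difference between lines did not pass in the F test (adjusted p = 0.0734). Treatment took up 23.94% of the variance of MTHFD1, 14.17% of that of PHGDH, 12.92% of that of SHMT2 (214096_s_at) and 8.647% of that of MTHFD2. For PSPH (205048_s_at) it took up 1.353% and for PSAT1 0.236%, against a median of 2.319% over all genes. With the other probe sets it took up 30.02% (214095_at) and 30.44% (214437_s_at) for SHMT2, and 15.41% (205194_at) for PSPH.

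Lines were ranked by the mean of both arrays on the log2(signal + 16) scale, on which folds of range are given. For PSAT1 no fold is given, since ALL-SIL and DND41 lay under the filter of 32.5. CCRF-CEM was first at 1305, followed by RPMI8402, PF382, P12-ICHIKAWA, MOLT3, CUTLL1 and KOPTK1 (143), then HPB-ALL (35.7), ALL-SIL (28.7) and DND41 (15.8). Only the step between KOPTK1 and HPB-ALL exceeded 2 SE, so other neighbours in this order do not differ beyond their spread.

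PSPH with 205048_s_at spanned 16-fold and split at another place. KOPTK1 (996), HPB-ALL, ALL-SIL, P12-ICHIKAWA and RPMI8402 (543) were above DND41 (164), CCRF-CEM, CUTLL1, PF382 and MOLT3 (47.3), and the step between RPMI8402 and DND41 was the only 1 over 2 SE. By this probe set HPB-ALL and ALL-SIL, below the step over 2 SE for PSAT1, were above that for PSPH. CCRF-CEM, PF382, MOLT3 and CUTLL1 were the reverse. KOPTK1, P12-ICHIKAWA and RPMI8402 were above the step for both genes, and DND41 was below it for both. Over 10 lines the line means of PSAT1 and PSPH correlated at r = -0.356. The other PSPH probe set, 205194_at, did not set ALL-SIL above CCRF-CEM. It put CCRF-CEM (153) above ALL-SIL (123), over a range of 1.889-fold with no step over 2 SE.

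MTHFD2 spanned 10.02-fold. CCRF-CEM (2143) was first, then RPMI8402, MOLT3, DND41, PF382, P12-ICHIKAWA, HPB-ALL, KOPTK1 and CUTLL1 (730), and ALL-SIL (199) stood below all of them by the only step over 2 SE. MTHFD1 spanned 3.605-fold, and ALL-SIL was its highest line at 1462. CCRF-CEM, PF382, MOLT3, CUTLL1, HPB-ALL, DND41, P12-ICHIKAWA and KOPTK1 (614) followed, with a step over 2 SE before RPMI8402 (394). ALL-SIL therefore had the lowest MTHFD2 and the highest MTHFD1 signal of the 10 lines, each set against the same probe set in other lines.

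PHGDH spanned 3.856-fold, in the order CCRF-CEM (1312), DND41, PF382, ALL-SIL, RPMI8402, MOLT3, P12-ICHIKAWA, CUTLL1, HPB-ALL and KOPTK1 (329). SHMT2 with 214096_s_at spanned 2.144-fold, in the order P12-ICHIKAWA (2109), ALL-SIL, MOLT3, PF382, KOPTK1, CCRF-CEM, CUTLL1, DND41, HPB-ALL and RPMI8402 (976). No step between neighbours exceeded 2 SE for either gene.

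**Figure D3:**
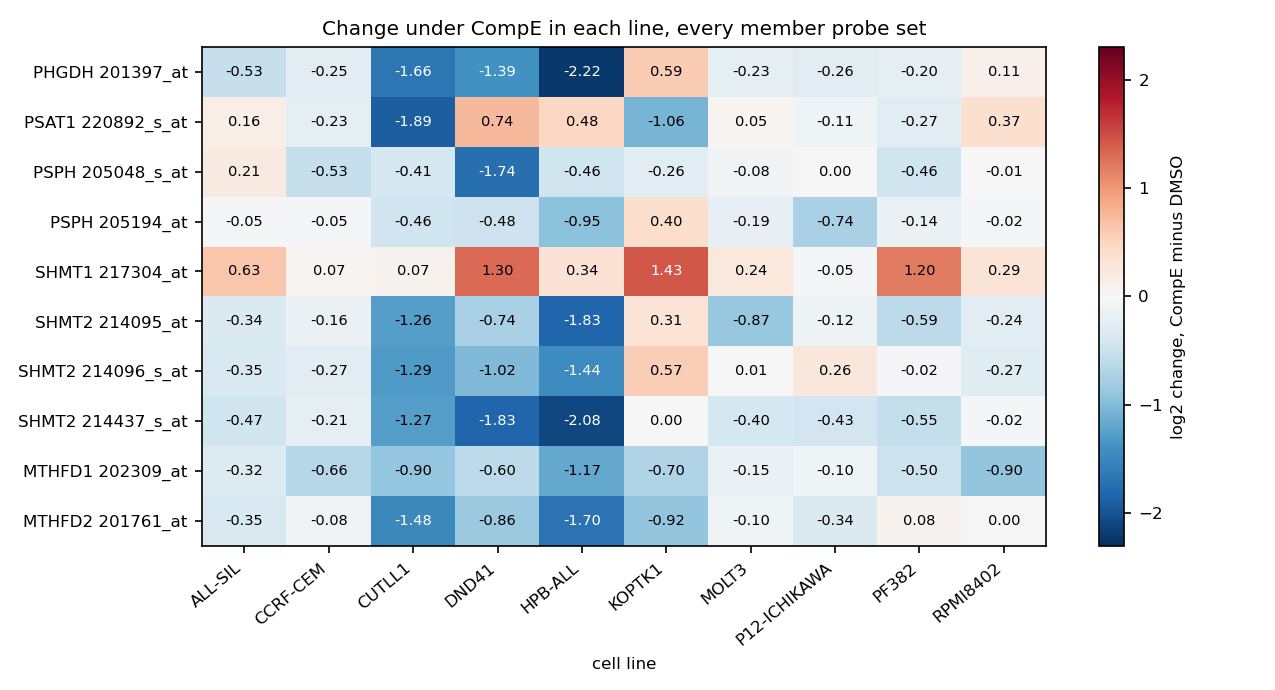
Log2 change under CompE (CompE minus DMSO, colour and printed value) of each of the 10 member probe sets (rows) in each of 10 lines (columns). CUTLL1, DND41 and HPB-ALL hold the lowest PHGDH and SHMT2 (214096_s_at) changes, the MTHFD1 row is negative throughout, and KOPTK1 is positive for PHGDH and for 2 of the 3 SHMT2 probe sets.

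Seen by line, the response of the 6 tested members was uneven. In CUTLL1 and DND41, 5 members had a change at or under -0.5, beside 9.786% and 12.96% of all tested genes in those lines. In HPB-ALL there were 4 members, beside 14.14%. The median member change was -1.39 in CUTLL1, -1.31 in HPB-ALL and -0.94 in DND41. MOLT3 and P12-ICHIKAWA had 0 such members, with medians of -0.093 and -0.10, beside 10.1% and 8.759% of all genes. KOPTK1 had 3 (PSAT1, MTHFD2 and MTHFD1), beside 17.96% of all genes, the highest such share of the 10 lines. Each line has 1 array per treatment, so these values have no test. CUTLL1 and CCRF-CEM were the 2 lines in which all 6 members were lower, beside 48.85% and 50.51% of all tested genes. In CCRF-CEM the median member change was only -0.26.

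The changes of PHGDH and SHMT2 (214096_s_at) followed each other over the 10 lines, with r = 0.949 and a Spearman rho of 0.794. Without CUTLL1 and HPB-ALL r was 0.873. The lines left still held DND41 (-1.39 for PHGDH, -1.02 for SHMT2) and KOPTK1 (0.59 and 0.57) at their far ends. In the rest, PHGDH lay between -0.53 and 0.11 and SHMT2 between -0.35 and 0.255. The r over these alone was not computed. Among the other 7694 genes, SHMT2 had the fifth highest r with PHGDH, and PHGDH the second highest with SHMT2. PHGDH and MTHFD2 had r = 0.747, which was 0.175 without CUTLL1 and HPB-ALL, and so rested on those lines. The points share arrays, scaling and RNA quality, and the correlations are descriptions.

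The MTHFD1 and MYC changes had r = 0.355 and rho 0.394 over the 10 lines, and r was 0.038 without KOPTK1 and P12-ICHIKAWA. For PHGDH, r with the MYC change was -0.341, and for MTHFD2 it was 0.021. With the change of the ACTB log2 ratio, r lay between -0.318 (MTHFD2) and 0.386 (SHMT2) for the 6 members.

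**Figure D4:**
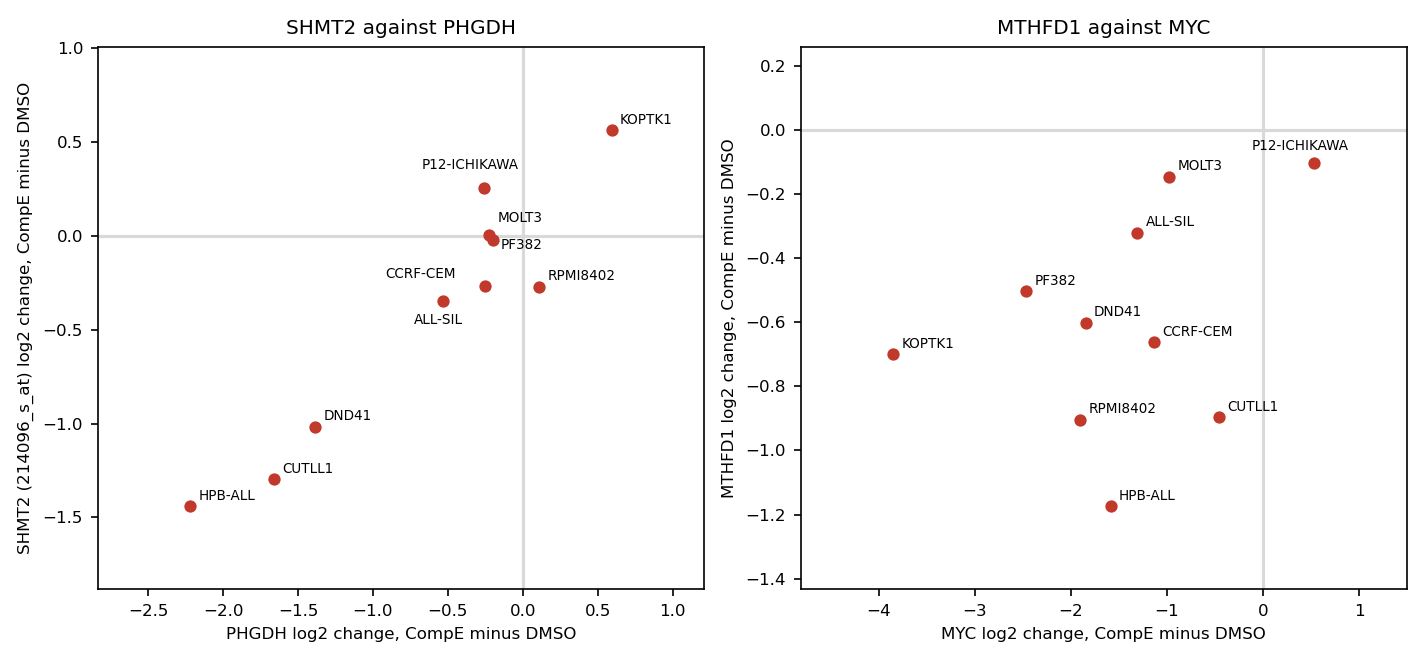
Log2 change of SHMT2 (214096_s_at) against that of PHGDH (left) and of MTHFD1 against that of MYC (right), all CompE minus DMSO, with 1 point per line. The left points lie along a rising band from HPB-ALL to KOPTK1 (r = 0.949), while the right points are scattered (r = 0.355).

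Around these enzymes, 5 lists of pathway genes held 55 genes, of which 37 were tested, 7 fell, 1 rose and 29 did neither, where 3.24% of all tested genes fell and 3.94% rose. The lists too were chosen with earlier results of these data known, so their counts are descriptions. The purine synthesis steps, which take up formyl units from folate at GART and ATIC, had the lowest median change of the 5 lists, -0.44, beside 0.044 over all tested genes. Of their 6 genes, 4 fell (GART, ATIC, PAICS and PFAS), beside 3.24% of all tested genes. PAICS, which acts between the folate steps, had 1753 ± 514 with CompE and 2356 ± 479 with DMSO (SD, n = 10), a change of -0.46 ± 0.103 (SE, limma adjusted p = 0.0190). PFAS, a glutamine-using step, had 310 ± 105 with CompE and 435 ± 151 with DMSO, at -0.48 ± 0.111 (adjusted p = 0.0212). PPAT, the first step, was at -0.36 (adjusted p = 0.0561) and ADSL at -0.10.

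In folate transport and turnover, 1 of 8 tested genes fell, beside 3.24% of all tested genes, and the median was -0.05. It was SLC19A1, the reduced folate carrier, which also takes methotrexate into cells. SLC19A1 had 194 ± 59.7 with CompE and 304 ± 112 with DMSO, a change of -0.55 ± 0.150 (SE, limma adjusted p = 0.0379), lower in 9 of 10 lines. TYMS, thymidylate synthase, was at 0.027 ± 0.080 (adjusted p = 0.870), and MTHFD2L, a mitochondrial relative of MTHFD2, at 0.040 ± 0.164 (adjusted p = 0.912).

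The glycine cleavage system, which feeds mitochondrial folate from glycine, had 1 gene that rose and 1 that fell among 3 tested, beside 3.94% and 3.24% of all tested genes. AMT, its aminomethyltransferase, rose, with 270 ± 57.9 with CompE and 186 ± 43.4 with DMSO, higher in all 10 lines (0.51 ± 0.099, SE, limma adjusted p = 0.0119). GCSH, the carrier protein of the same complex, fell, with 552 ± 186 with CompE and 735 ± 209 with DMSO (-0.42 ± 0.116, adjusted p = 0.0399). DLD, its dehydrogenase, shared with other complexes, was lower in all 10 lines at -0.30 but missed the threshold (adjusted p = 0.0530).

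In the methionine cycle, to which folate supplies methyl groups, 1 of 9 tested genes fell, beside 3.24% of all tested genes, and the median was -0.009. It was AHCY, which clears S-adenosylhomocysteine, with 372 ± 164 with CompE and 523 ± 167 with DMSO, lower in all 10 lines (-0.53 ± 0.104, SE, limma adjusted p = 0.0119). Of 11 tested genes of serine entry and use, 0 passed in either direction in limma, beside 7.17% of all tested genes. An unadjusted p under 0.05 was found for 3 (SARS2, SARS1 and SLC1A4), beside 1934 of all 7695 tested genes. The median of this list was 0.047. The lowest there, SLC1A5, SARS2 and SLC1A4, named after their values were seen, were at -0.43, -0.42 and -0.33. SLC1A4 and SLC1A5 carry neutral amino acids including serine, and SARS2 is the mitochondrial seryl-tRNA synthetase.

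**Figure D5:**
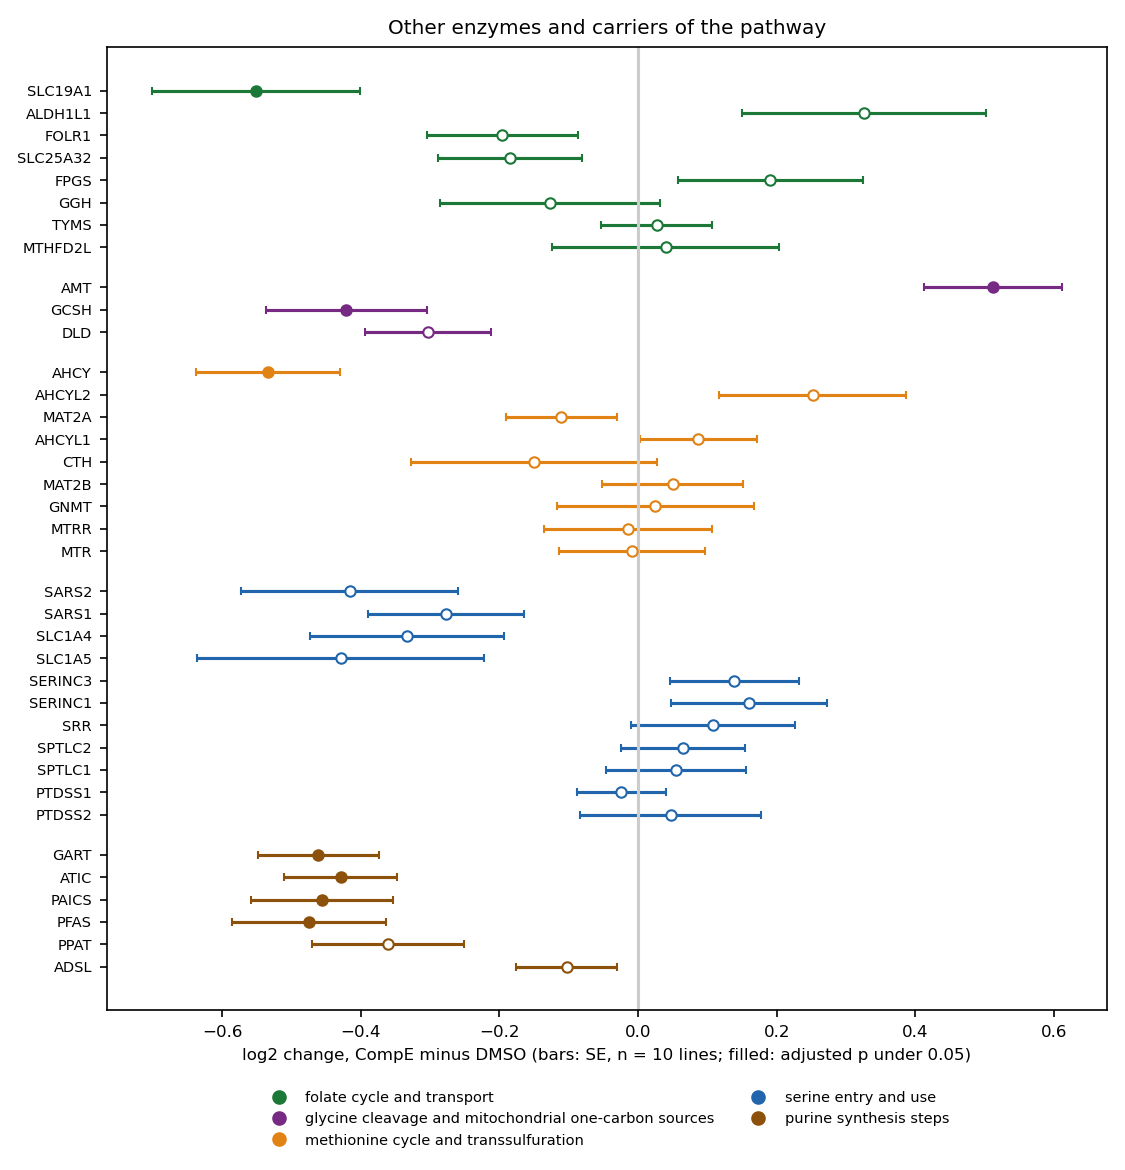
Mean log2 change under CompE (CompE minus DMSO, horizontal axis) with its SE over 10 lines for the 37 tested pathway genes, coloured by list, with filled points at an adjusted p under 0.05. SLC19A1, GCSH, AHCY, GART, ATIC, PAICS and PFAS are filled left of 0, and AMT is filled right of it.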

How the data were processed

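The deposited values are MAS5 signal intensity values per probe set (linear), per the submitters' processing notes, which give no version. After trimming the top and bottom 2% of probe sets, array means were 249.9 to 250.1, so the deposited values share 1 scale, and it was kept. Of 22277 probe sets, 62 were controls, 19064 others named 1 gene in the platform annotation, 1043 several, and 2164 were unlisted. A gene was read by its probe set with the highest mean, and genes with a mean log2 signal below the 40th percentile (a signal of 32.5) were left out. log2(signal + 16) was fitted in R 4.3.3 by limma 3.58.1 with a block per cell line, an intensity trend and Benjamini-Hochberg adjustment over 7695 genes (two-sided, 0.05). A second fit took all 19064 probe sets without the filter. A fold on this scale understates dim genes. Pairs come from the labels, which name each array's line; every CompE array (10 of 10) was closest in correlation to its line's DMSO array. Differences between 2 members used exact sign-flip tests over 1024 patterns.

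Members and pathway lists were chosen with earlier results of these data known. The lists came from general knowledge, and from each the genes past the threshold were named, at most 4 by adjusted p; for each member the 2 genes most alike in line means were named. HES1 and MYC served as a check of the response. Other pathway genes were named after their values were seen. The code was tested on simulated data. Alternatives covered the pseudocount, filter, scaling, probe set rule, trend, block, RNA quality and lines. The difference of MTHFD1L and MTHFD1 was planned and not run, since MTHFD1L was not analysed. Left out were 2 probe sets annotated to a member and another gene.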

Additional observations from a re-analysis of the deposited data

Results flagged for a closer look

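Among 30 groups of 10 values checked (CompE signals, DMSO signals and changes of the 10 member probe sets), 3 held a value far from the others. The limit used gives about 1 in 20 by chance only for independent, normally spread values. Linear signals of different lines need not be so spread, and the groups share arrays, so no chance rate is given here. The PHGDH signal of KOPTK1 with DMSO was 264.6, and the next lowest DMSO signal was 820.3. The MTHFD2 signal of ALL-SIL with DMSO was 227.5, and the next lowest was 1231. The change of PSPH (205048_s_at) in DND41 was -1.74, and the next lowest was -0.53. The other PSPH probe set gave -0.48 there.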

How the results depend on the processing

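Under 12 other settings MTHFD1 kept its call in 11 and MTHFD2 in 6, while PHGDH, PSPH, SHMT2 and PSAT1 had a call in 0. The number of member genes called (2) became 1 with no filter on low signal, with eBayes without a trend, with a random block of cell line, with a covariate for the ACTB ratio, and without the 3 lines whose DMSO label names another growth medium (CCRF-CEM, MOLT3 and P12-ICHIKAWA; that name is a cell line's and may be an error). MTHFD2 was the gene lost, at adjusted p of 0.0577, 0.0687, 0.0844, 0.184 and 0.0516. With no replicate block, 0 genes were called in limma instead of 552, 0 member genes and 0 member probe sets; 369 genes, 1 member gene and 4 member probe sets then had an unadjusted p under 0.05. The causes were not tested. Over all settings the adjusted p ran from 0.0249 to 0.977 for PHGDH, 0.0447 to 0.977 for SHMT2, 0.0937 to 0.9996 for PSPH, 0.439 to 0.9996 for PSAT1, 0.00416 to 0.977 for MTHFD1 and 0.0275 to 0.987 for MTHFD2. The paired block changed no call of PHGDH, PSPH, SHMT2 or PSAT1.

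The count of 552 genes (303 higher, 249 lower) was 318 with the ACTB covariate and 298 without the 3 lines, and median centring gave 116 higher and 340 lower. Without 1 line it ran from 181 (HPB-ALL) to 1031 (KOPTK1), with 316 (CUTLL1), 214 (DND41), 346 (MOLT3), 355 (PF382) and 183 (RPMI8402) between. The member genes called ran from 1 to 4 and the member probe sets called from 1 to 4, the highest both without KOPTK1. Those probe sets (1 called) were 2 with median centring and 0 with eBayes without a trend, where 7 had an unadjusted p under 0.05.

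The MTHFD2 minus MTHFD1 difference was -0.02 without the 3 lines and ran from -0.072 to 0.093 without 1 line. The PSAT1 change ran from -0.279 to 0.014. The planned SHMT2 minus SHMT1 difference, -0.93, moved to -1.51 with a pseudocount of 1 and to -0.60 with 64, and it is not read as a result because SHMT1 was under the low-signal filter. Dim signals limit SHMT1 and the low PSAT1 lines.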

Other observations

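For each tested member, the genes with the most similar line means (Pearson r over 10 lines, the mean of both arrays of a line, points sharing arrays and scaling) were listed as a description. For PHGDH they were ADGRL1 (r = 0.926) and C19orf53 (0.917). For PSAT1 they were STXBP2 (0.939) and YBX2 (0.935), and for PSPH RBBP7 (0.937) and CCDC92 (0.874). For SHMT2 they were WWP2 (0.951) and TOR1A (0.895). For MTHFD1 they were DNAJB5 (0.889) and SAP18 (0.888), and for MTHFD2 KANK2 (0.954) and TFCP2 (0.951). No member was among the closest genes of another.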
